A study of Caenorhabditis elegans with 6 samples.

Results

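The hedgehog-related and patched-related genes of Caenorhabditis elegans were taken as every gene with counts whose name is wrt, grd, grl, hog, qua, ptr or ptc followed by a number. The rule gave 87 genes of the 22416 with counts. Of these, 61 are hedgehog-related, namely 10 warthog (wrt), 17 groundhog (grd), 32 ground-like (grl), hog-1 and qua-1, and 26 are patched-related, namely 23 ptr and 3 ptc genes. The annotation gives 84 of them as protein coding and grd-17, grl-32 and ptc-2 as pseudogenes.

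In flies and vertebrates a Hedgehog ligand is cut by its own C-terminal Hog domain, which joins cholesterol to the signalling part, and the ligand binds the membrane protein Patched, which otherwise holds Smoothened inactive. C. elegans has no clear Hedgehog ortholog and no Smoothened, but it has a large set of secreted proteins with warthog or ground-like domains, some with a Hog domain, and many Patched-like proteins with a sterol-sensing domain. In this worm both sets are known mainly from epidermis, glia, moulting and the extracellular matrix that coats apical surfaces, and ptc-1 from cell division in the germline.

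RNA was counted in 6 pools of whole worms, 3 fed bacteria with an empty vector (EV control) and 3 fed bacteria for nol-56 RNAi, all at day 6 of adulthood and kept at 20 °C. All were strain CL2006 with the transgene unc-54p::Abeta, in which the promoter of a body wall muscle myosin gene drives the human amyloid beta peptide, so no group lacked that peptide. All worms fed on EV bacteria up to the last larval stage (L4), and the RNAi group then fed on bacteria with RNA against nol-56, which encodes a core protein of the nucleolar particles that methylate ribosomal RNA. Progeny were removed by daily transfer. The labels state no batch and do not say whether the pools were grown as separate cultures, so a p-value here sets a difference against the spread of these 6 libraries only, and that spread may be technical.

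Total counts were 21138955 to 34841215 per library. Values are CPM (counts scaled to a common library total) with TMM-scaled library sizes, and a gene was called higher or lower where edgeR's quasi-likelihood test over all genes gave an adjusted p under 0.05. nol-56 itself stood at 253, 270.2 and 265 CPM in EV control libraries 1 to 3 and at 20.8, 18 and 15.7 CPM in nol-56 RNAi libraries 1 to 3, and it was 14.4-fold lower under nol-56 RNAi (log2 fold change −3.85, SE 0.06, edgeR adjusted p = 1.18e-21). The difference between groups reached most of the transcriptome: 88% of the 14677 genes tested were called, 47.2% as higher and 40.8% as lower. The groups also did not overlap in 88% of the genes tested, with RNAi above in 47.2% and below in 40.9%. Groups that do not overlap are therefore common here and do not set a member apart. Summed over marker lists, the germline and oocyte genes stood at 21650.1 ± 1026 CPM in the control and 15994 ± 189 CPM under nol-56 RNAi (SD, n = 3) and the embryo genes at 151 ± 9.05 and 41.7 ± 1.55 CPM. The muscle, neuron and intestine sums were 1.92, 2 and 2.41 times those of the control. In whole worms, fewer cells of a type and less RNA per cell cannot be told apart.

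Hedgehog-related and patched-related genes both went in both directions. Of the 37 hedgehog-related genes tested, 16 were called higher under nol-56 RNAi, 11 lower and 10 neither. Thus 72.97% were called where 88% of all genes were. Over all genes the share called was 69.5% at mean levels below 1 CPM, 80.5% at 1 to 2 CPM and 87.8% at 2 to 5 CPM. The hedgehog-related genes tested had a median level of 2.08 CPM. Of the 25 patched-related genes tested, 13 were called higher, 8 lower and 4 neither, which is 84%. The median log2 fold change was −0.04 over the hedgehog-related genes tested and 0.43 over the patched-related genes tested, beside 0.16 over all genes tested. The hedgehog-related median includes 5 genes near the lower limit of the test (grd-2, grd-12, grl-5, grl-18 and wrt-4). In these the minimum of the count filter was met by all 3 control libraries but by only 1 or 2 RNAi libraries, and 3 of the genes were called lower. Over the other 32 the median was 0.35. All 5 values lie below the median, so leaving them out could only raise it. The median of all genes was not recomputed without such genes, so 0.35 has no like value beside it. A fold of at least 2 was reached by 8 hedgehog-related genes upward and 7 downward, and by 7 patched-related genes upward and 3 downward, where the shares over all genes were 24.8% and 12.4%.

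The balance of calls depended on the scaling, for all genes as for the members. With DESeq2-type (RLE) factors in edgeR 14 hedgehog-related genes were higher and 15 lower, so that 48.3% of the calls were upward in place of 59.3%, and with upper-quartile factors 16 patched-related genes were higher and 5 lower, 76.2% upward in place of 61.9%. Over all genes, 53.63% of the calls were upward (49.59% and 62.38% with those factors), and the median moved from 0.16 to 0.02 and 0.41. The hedgehog-related median moved with that of all genes, to −0.18 and 0.20 with the same factors, and to 0.05 with library totals, where that of all genes was 0.25. In DESeq2 the calls of grd-1, grd-10, grd-16, grl-8, grl-10, qua-1, ptr-3 and ptr-22 were lost, and with upper-quartile factors those of grd-16, grl-1, ptr-15, ptr-16 and ptr-18.

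**Figure D1:**
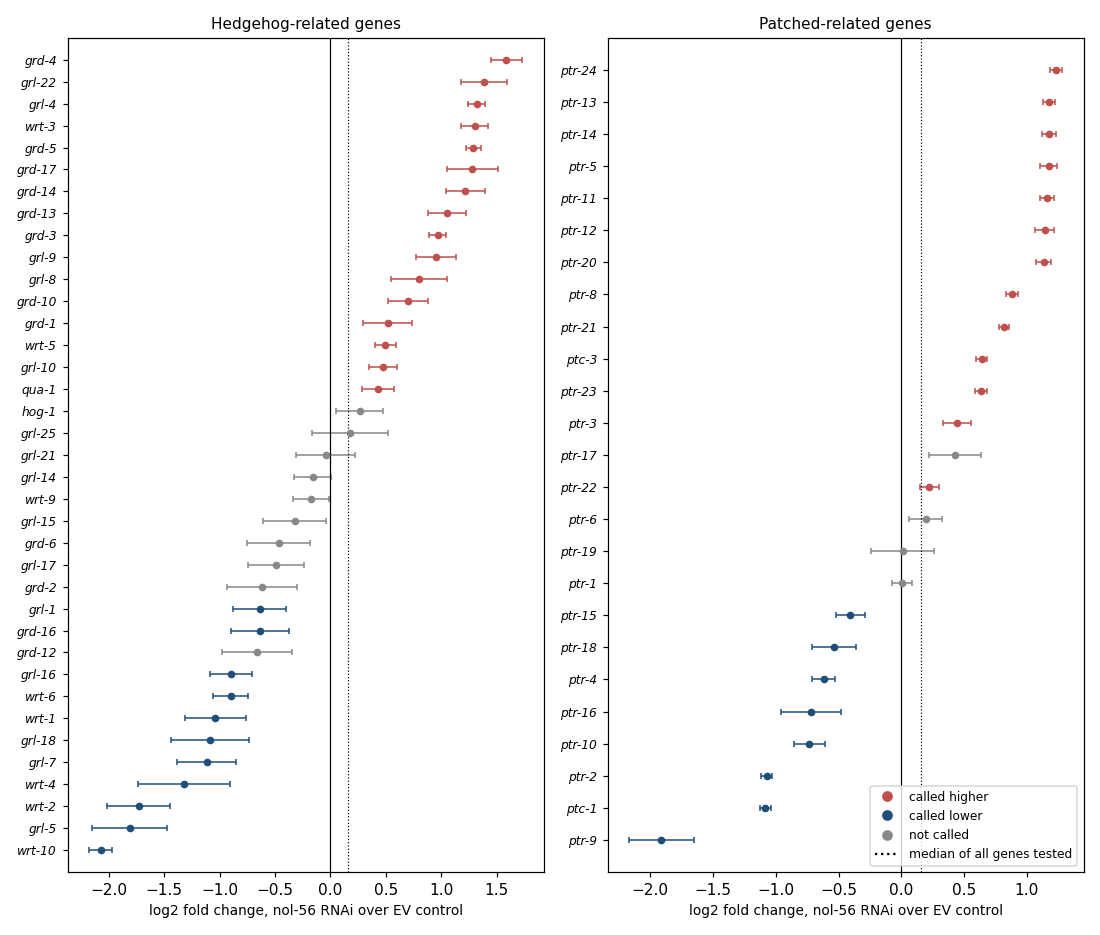
Log2 fold change (nol-56 RNAi over EV control, x axis) with its standard error for the 37 hedgehog-related (left) and 25 patched-related genes tested (right), coloured by call; the dotted line is the median of all genes tested. The hedgehog-related genes run from −2.07 (wrt-10) to 1.59 (grd-4) and the patched-related genes from −1.91 (ptr-9) to 1.23 (ptr-24).

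Of the 8 warthog genes tested, 5 fell, wrt-3 and wrt-5 rose and wrt-9 was not called, with a median log2 fold change of −0.97. The share called was 87.5%, beside 88% of all genes tested, 47.2% as higher and 40.8% as lower. wrt-10, on chromosome II (WBcel235, 7533262 to 7534563), stood at 17.5, 18.9 and 22.4 CPM in the control and at 4.82, 4.67 and 4.48 CPM under nol-56 RNAi. The groups lay far apart, and the gene fell from 19.6 ± 2.53 to 4.66 ± 0.172 CPM (SD, n = 3; 4.21-fold lower, log2 fold change −2.07, SE 0.10, edgeR adjusted p = 1.64e-14). It was the 1 hedgehog-related gene that fell by over 4-fold, and its share of the summed CPM of the hedgehog-related genes went from 15.5% to 2.66%.

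wrt-2, whose promoter is used to mark the seam cells of the epidermis, stood at 1.90, 4.55 and 6.05 CPM in the control and 1.49, 1.18 and 1.20 CPM under nol-56 RNAi. It fell (log2 fold change −1.73, SE 0.29, edgeR adjusted p = 8.63e-06), and its control libraries differed 3.19-fold among themselves, with library 1 lowest and library 3 highest. wrt-1 had the same order, at 1.81, 2.63 and 5.22 CPM in the control and 1.65, 1.46 and 1.71 CPM under RNAi, and it also fell (−1.04, SE 0.28, edgeR adjusted p = 0.00143). Without control library 3 its log2 fold change was −0.52 (adjusted p = 0.0202), and that of wrt-2 was −1.41.

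wrt-6 stood at 3.53, 2.99 and 3.46 CPM in the control and 1.81, 1.79 and 1.71 CPM under nol-56 RNAi. The groups did not overlap and the gene fell (−0.90, SE 0.16, edgeR adjusted p = 1.76e-05). wrt-4 was near the lower limit of the test, at 0.517, 0.658 and 1.12 CPM in the control and 0.362, 0.0813 and 0.508 CPM under RNAi, and fell (−1.32, SE 0.42, edgeR adjusted p = 0.00545), a call lost without RNAi library 2 (−0.85, adjusted p = 0.0608).

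The pair that rose were wrt-3 and wrt-5. wrt-3 stood at 3.79, 4.16 and 3.62 CPM in the control and 9.05, 8.46 and 11.2 CPM under nol-56 RNAi (2.46-fold higher, log2 fold change 1.30, SE 0.12, edgeR adjusted p = 8.97e-10). It shares 1002 exon bases with another counted gene on its strand, WBGene00014752, so its reads are uncertain. wrt-5, which encodes a secreted protein needed in embryos, stood at 7.11, 8.74 and 7.46 CPM in the control and 11.3, 10.7 and 11.2 CPM under RNAi, a smaller rise with no overlap (0.50, SE 0.09, edgeR adjusted p = 3.26e-05). wrt-9, at 2.65 ± 0.250 and 2.38 ± 0.347 CPM (SD, n = 3), overlapped between groups (−0.17, adjusted p = 0.311).

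The groundhog genes are secreted proteins with a ground or ground-like domain. Of 12 tested, 8 rose, grd-16 fell and 3 were not called, with a median log2 fold change of 0.83. The share called was 75%, beside 88% of all genes tested. At mean levels of 1 to 2 and 2 to 5 CPM, 62.3% and 70% of all genes tested were higher. Their medians were 0.76 and 0.85, and the groundhog genes tested had a median level of 2.02 CPM. grd-5, on chromosome V (8619032 to 8619870), stood at 12.3, 11.8 and 13.3 CPM in the control and 29.0, 30.7 and 32 CPM under nol-56 RNAi. It rose from 12.5 ± 0.761 to 30.6 ± 1.48 CPM (SD, n = 3; 2.44-fold, log2 fold change 1.29, SE 0.07, edgeR adjusted p = 4.28e-14). Per kilobase of exon it was the highest hedgehog-related gene in both groups.

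grd-4 stood at 1.64, 1.89 and 1.92 CPM in the control and 5.15, 6.02 and 5.36 CPM under nol-56 RNAi. It had the highest fold of the hedgehog-related genes tested (3.01-fold higher, log2 fold change 1.59, SE 0.14, edgeR adjusted p = 4.75e-10). Its neighbour grd-14 stood at 1.03, 1.38 and 1.5 CPM against 3.30, 3.21 and 2.73 CPM (1.22, SE 0.18, edgeR adjusted p = 1.43e-06), and grd-3 at 9.05, 8.41 and 10.1 CPM against 18.1, 17.7 and 18.2 CPM (0.97, SE 0.08, edgeR adjusted p = 1.51e-10). In all 3 genes every RNAi library was above every control library, as in 47.2% of all genes tested.

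The other risers were grd-13 (log2 fold change 1.05), the pseudogene grd-17 (1.28), grd-10 (0.70) and grd-1 (0.52, edgeR adjusted p = 0.0328). grd-1 carries a Hog domain, and its groups overlapped, at 1.16, 1.5 and 2.53 CPM against 2.05, 2.85 and 2.73 CPM. Its call was lost without control library 1, control library 2, RNAi library 2 or RNAi library 3, and with RLE factors. grd-16, at 0.944 ± 0.0458 and 0.610 ± 0.113 CPM (SD, n = 3), fell (−0.64, edgeR adjusted p = 0.0266), a call lost without control library 2 or without RNAi library 1 or 2.

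Among those not called, grd-12 stood at 0.603, 0.599 and 0.928 CPM in the control and 0.362, 0.528 and 0.462 CPM under nol-56 RNAi, and grd-2 at 0.690, 0.509 and 0.768 against 0.442, 0.325 and 0.508 CPM. Both had separate groups but missed the threshold (−0.66, edgeR adjusted p = 0.0519, and −0.62, edgeR adjusted p = 0.0743). With RLE factors both were called lower, as they were without control library 2, and grd-12 also without control library 1. grd-6 overlapped (−0.47, adjusted p = 0.126), and it too was called lower with RLE factors (−0.60, adjusted p = 0.048), and without control library 1 or RNAi library 1.

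The ground-like genes had calls split evenly: of 15 tested, 5 rose, 5 fell and 5 were not called, with a median log2 fold change of −0.16. The share called was 66.7%, beside 88% of all genes tested. It was 69.5% of all genes tested at mean levels below 1 CPM and 80.5% at 1 to 2 CPM. The ground-like genes tested had a median level of 1.11 CPM. grl-4, on chromosome IV (7309838 to 7310760), stood at 15.3, 15.8 and 17.1 CPM in the control and 34.8, 41.6 and 44.4 CPM under nol-56 RNAi. It rose from 16.1 ± 0.925 to 40.3 ± 4.97 CPM (SD, n = 3; 2.50-fold, log2 fold change 1.32, SE 0.08, edgeR adjusted p = 2.93e-13), and its share of the hedgehog-related summed CPM went from 12.7% to 23%.

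grl-22 stood at 0.647, 0.718 and 0.864 CPM in the control and 2.0102, 1.91 and 1.99 CPM under nol-56 RNAi (1.39, SE 0.21, edgeR adjusted p = 2.49e-06). grl-9 stood at 1.12, 1.5 and 1.6 CPM against 2.41, 3.01 and 2.91 CPM (0.95, SE 0.18, edgeR adjusted p = 4.22e-05). Both rose with no overlap between groups, as did grl-8 (0.80) and grl-10 (0.47), although the call of grl-8 was lost without RNAi library 2.

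grl-5 went the other way, at 0.819, 0.928 and 1.22 CPM in the control and 0.442, 0.203 and 0.185 CPM under nol-56 RNAi (−1.81, SE 0.34, edgeR adjusted p = 4.14e-05). grl-7, known from epidermal matrix and, with ptr-18, from keeping neural progenitors quiescent, stood at 1.29, 1.74 and 2.56 CPM against 0.643, 0.813 and 1.20 CPM and fell (−1.12, SE 0.27, edgeR adjusted p = 0.000529). grl-18, a marker of socket glia of the inner labial sense organs, fell by 1.09 on the log2 scale from 0.598 ± 0.0526 to 0.287 ± 0.113 CPM (SD, n = 3). grl-16 (−0.90) and grl-1 (−0.64) also fell, the latter a call lost without RNAi library 2.

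Of the ground-like genes not called, grl-17 stood at 0.991, 1.05 and 1.22 CPM against 0.603, 0.691 and 1.06 CPM, with 1 RNAi library inside the control range (−0.49, edgeR adjusted p = 0.0755). It was called lower with RLE factors and without RNAi library 3. The log2 fold changes of grl-14, grl-15, grl-21 and grl-25 were −0.16, −0.32, −0.04 and 0.18, and the groups overlapped in each; grl-15 was called lower without control library 1.

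hog-1, a protein with a Hog domain and no warthog or ground domain, stood at 0.862, 1.20 and 1.152 CPM in the control and 1.37, 1.26 and 1.29 CPM under nol-56 RNAi. Its groups did not overlap, but the difference missed the threshold (0.26, SE 0.22, edgeR adjusted p = 0.252), which it passed with upper-quartile factors (adjusted p = 0.0333). qua-1, which is needed for moulting, stood at 3.41, 5.84 and 5.99 CPM against 6.87, 7.64 and 6.47 CPM and rose (0.43, SE 0.14, edgeR adjusted p = 0.00856). Control library 1 was well under the others: without it the log2 fold change was 0.24 (adjusted p = 0.0493), and the call was lost without RNAi library 2 and with RLE factors.

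Of the 10 genes that encode a Hog domain, 7 were tested. Among them grd-1 and qua-1 rose, wrt-1, wrt-4 and wrt-6 fell, and grd-2 and hog-1 were not called. The share called was 71.4%, beside 88% of all genes tested, 47.2% as higher and 40.8% as lower. Of the 7 tested, grd-2 and wrt-4 met the minimum of the count filter in all control libraries but not in all RNAi libraries. The median of log2 fold change over the group was −0.62 with both and 0.26 without them. Both had negative values, so leaving them out could only raise the median.

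**Figure D2:**
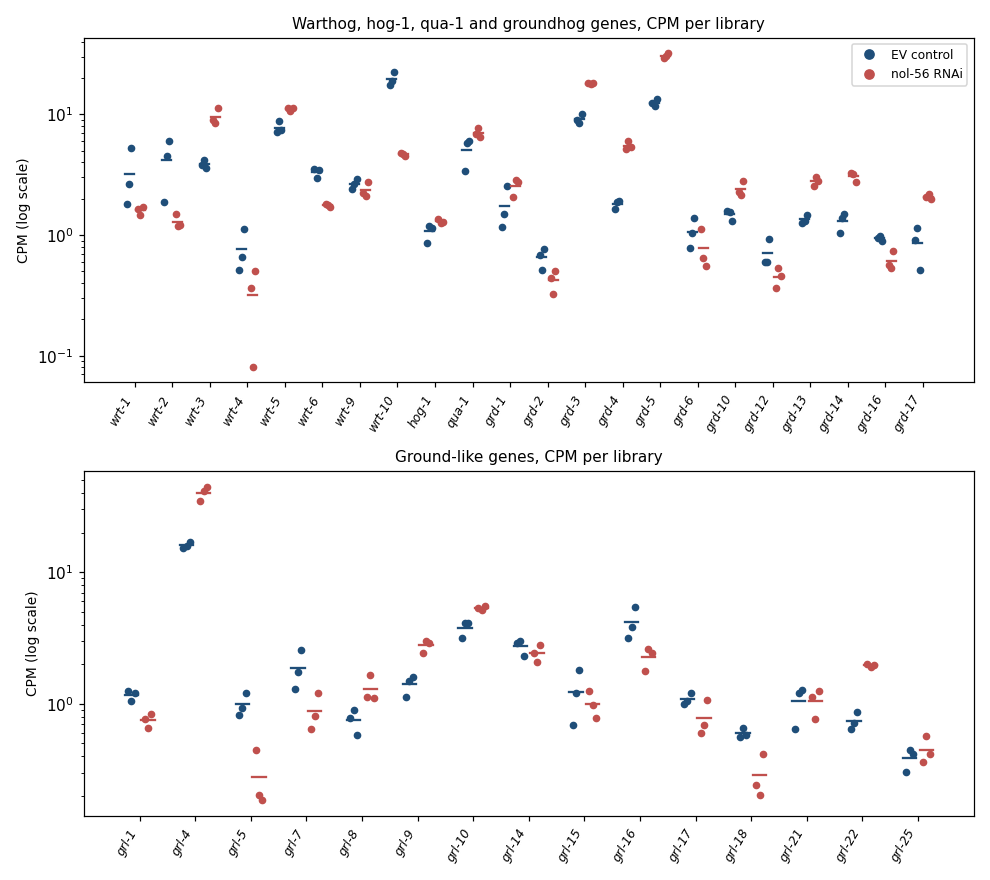
CPM per library (log scale, y axis) of hedgehog-related genes; each point is 1 library, with 3 libraries in each group (EV control and nol-56 RNAi). The RNAi points of wrt-10 and wrt-2 lie below their control points and those of grd-5, grd-4 and grl-4 above them, and the control points of wrt-2 are spread 3.19-fold.

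The low level of many members bounds these counts. Of the hedgehog-related genes, 24 were under the count filter (about 0.417 CPM in at least 3 libraries), with totals of 0 to 72 counts over all libraries and at most 0.832 CPM in any library: grd-7, grd-8, grd-9, grd-11 and grd-15, grl-2, grl-3, grl-6, grl-11, grl-12, grl-13, grl-19, grl-20, grl-23, grl-24, grl-26, grl-27, grl-28, grl-29, grl-30, grl-31 and grl-32, wrt-7 and wrt-8. grl-2, a marker of the excretory duct and pore, had 19 counts in all. grl-11 had 1, 3 and 7 counts in the control and 0 in each RNAi library, and grl-28 had 0 counts in all 6 libraries, which allows 0.0898 to 0.139 CPM (3 counts a library, counting error only). ptc-2, with 13 counts, was the patched-related gene left untested. Of the members tested, grl-5, grl-18, wrt-4, ptr-9, grd-2 and grd-12 met the filter's minimum in all control libraries but not in all RNAi libraries. The filter takes any 3 libraries, so the RNAi libraries alone would not have brought these genes into the test.

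Control libraries were not alike for the hedgehog-related genes. Control library 1 was the lowest of the 3 for 25 of 37 genes (67.6%) and control library 3 the highest for 24 (64.9%), where over all genes tested the shares were 39.6% and 32.5%. In the list of moulting and apical matrix genes the same libraries were lowest for 24 and highest for 25 of 41 genes, with sqt-3, a cuticle collagen gene, at 56.2, 73.5 and 108 CPM in the control. Without control library 3 the hedgehog-related median log2 fold change was 0.15 in place of −0.04. The part of this spread in the calls beyond those values was not tested.

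The summed level of the hedgehog-related genes was 112, 125 and 143 CPM in the control and 167, 175 and 184 CPM under nol-56 RNAi, a ratio of 1.39. By subfamily, the warthog sum was 39.0, 45.7 and 53.2 CPM against 33.1, 31 and 35.3 CPM (ratio 0.72), the groundhog sum 32.9, 32.9 and 37.9 CPM against 68.5, 70.9 and 71.7 CPM (2.04) and the ground-like sum 35.3, 39.5 and 44.3 CPM against 56.8, 64.6 and 69.7 CPM (1.6). In none of these did the groups overlap, but single genes carried the warthog and ground-like differences. Without wrt-10 the warthog sum was 26.4 ± 4.61 and 28.4 ± 2.24 CPM (SD, n = 3) and without grl-4 the ground-like sum was 23.7 ± 3.60 and 23.4 ± 1.67 CPM, with overlapping groups in both. Without grd-5 the groundhog sum was still apart, at 22.1 ± 2.17 and 39.8 ± 0.429 CPM. So was the sum of all hedgehog-related genes without grl-4, at 110 ± 14.6 and 135 ± 4.26 CPM (ratio 1.22). These sums were chosen after the data were seen. Per kilobase of exon the order in the control was grd-5 (23.8 ± 1.45 CPM per kilobase, SD, n = 3), grl-4 (19.5 ± 1.13), wrt-10 (17.4 ± 2.24), grd-3 (13.3 ± 1.27) and wrt-5 (9.65 ± 1.06), where grl-4 and wrt-10 were within 1 SD of each other. Under nol-56 RNAi it was grd-5 (58.3), grl-4 (49.0), grd-3 (26), wrt-5 (13.7) and grd-4 (7.19), and wrt-10 was at rank 9 with 4.13 CPM per kilobase.

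Among the patched-related genes, the pair highest per kilobase of exon fell, and 13 of the other 23 tested rose. ptc-1, needed for cytokinesis in the germline and placed on chromosome II (7893222 to 7900515), stood at 1086, 1080.3 and 1019 CPM in the control and 505, 495 and 505 CPM under nol-56 RNAi. It fell from 1062 ± 36.8 to 502 ± 5.78 CPM (SD, n = 3; 2.12-fold lower, log2 fold change −1.08, SE 0.04, edgeR adjusted p = 3.88e-16). The germline list moved with it: 23 of its 25 genes were lower and 2 higher, with a median log2 fold change of −1.08, and the part of that in the ptc-1 result was not tested.

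ptr-2, on chromosome I, stood at 394, 367 and 362 CPM in the control and 179.6, 172 and 182 CPM under nol-56 RNAi. It fell by a like amount (2.1-fold lower, −1.07, SE 0.04, edgeR adjusted p = 7.37e-16). In the control ptc-1 made up 55.4% and ptr-2 19.5% of the summed CPM of the patched-related genes. ptc-3, known for osmoregulation, growth and moulting and placed on chromosome II (2845412 to 2852593), stood at 82.2, 88.1 and 85.5 CPM against 135, 133 and 131 CPM and rose (1.56-fold, 0.64, SE 0.04, edgeR adjusted p = 1.93e-12), opposite to ptc-1.

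Of the 23 ptr genes, all tested, 12 rose, 7 fell and 4 were not called, with a median log2 fold change of 0.43. The share called was 82.6%, beside 88% of all genes tested. ptr-13 stood at 38.6, 39.2 and 38.1 CPM in the control and 88.0, 88.2 and 85.5 CPM under nol-56 RNAi (2.26-fold higher, 1.18, SE 0.04, edgeR adjusted p = 2.22e-16). ptr-24 stood at 32.2, 34.1 and 33.6 CPM against 75.7, 78.5 and 80.9 CPM (2.35-fold higher, 1.23, SE 0.05, edgeR adjusted p = 3.54e-16). Both had tight groups that lay far apart, and ptr-14 had too, at 18.8, 20.0 and 20.1 CPM against 44.7, 45.9 and 42.7 CPM (2.26-fold higher, 1.17, edgeR adjusted p = 8.72e-15).

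ptr-5, ptr-11, ptr-12 and ptr-20 rose by 2.25, 2.24, 2.21 and 2.20 times, so that 7 ptr genes shared a fold between 2.20 and 2.35. ptr-8 (1.84-fold), ptr-21 (1.76-fold), ptr-23 (1.55-fold) and ptr-3 (log2 fold change 0.44) rose less, each with no overlap between groups. ptr-22 was called higher at 1.17-fold with overlapping groups (24.3, 27.1 and 25.2 CPM against 33.8, 29.6 and 26 CPM; edgeR adjusted p = 0.00778), a call lost without RNAi library 1 and, with RLE factors, at an adjusted p of 0.272.

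ptr-9 was the ptr gene with the lowest ratio, at 1.68, 1.68 and 1.6 CPM in the control and 0.322, 0.569 and 0.416 CPM under nol-56 RNAi (3.76-fold lower, −1.91, SE 0.25, edgeR adjusted p = 4.24e-07). ptr-4, which is needed for the temporary matrix laid down before new cuticle, stood at 17.7, 20.9 and 24.1 CPM against 14.7, 13.7 and 12.6 CPM and fell (1.54-fold lower, −0.62, SE 0.09, edgeR adjusted p = 1.56e-06). ptr-10, known from glia, fell from 6.10 ± 0.437 to 3.69 ± 0.470 CPM (SD, n = 3; −0.73). ptr-16 (−0.72), ptr-18 (−0.54) and ptr-15 (−0.41) also fell, a call lost for ptr-18 without control library 3 (−0.27, adjusted p = 0.105) and for ptr-16 without RNAi library 2.

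The ptr genes not called were ptr-1, ptr-6, ptr-17 and ptr-19. ptr-1 stood at 10.9, 11 and 11.4 CPM in the control and 10.6, 10.9 and 12.1 CPM under nol-56 RNAi, with a log2 fold change of 0.00 (SE 0.08, edgeR adjusted p = 0.963). ptr-17 stood at 1.77, 1.17 and 1.18 CPM against 1.49, 1.95 and 1.99 CPM (0.43, SE 0.21, edgeR adjusted p = 0.0616). With upper-quartile factors ptr-1 was called higher (0.25, adjusted p = 0.00757), as were ptr-6 and ptr-17. ptr-17 was also called higher with library totals and without control library 1 or RNAi library 1. ptr-6 was also called higher with a filter of over 5 CPM in 3 or more libraries.

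**Figure D3:**
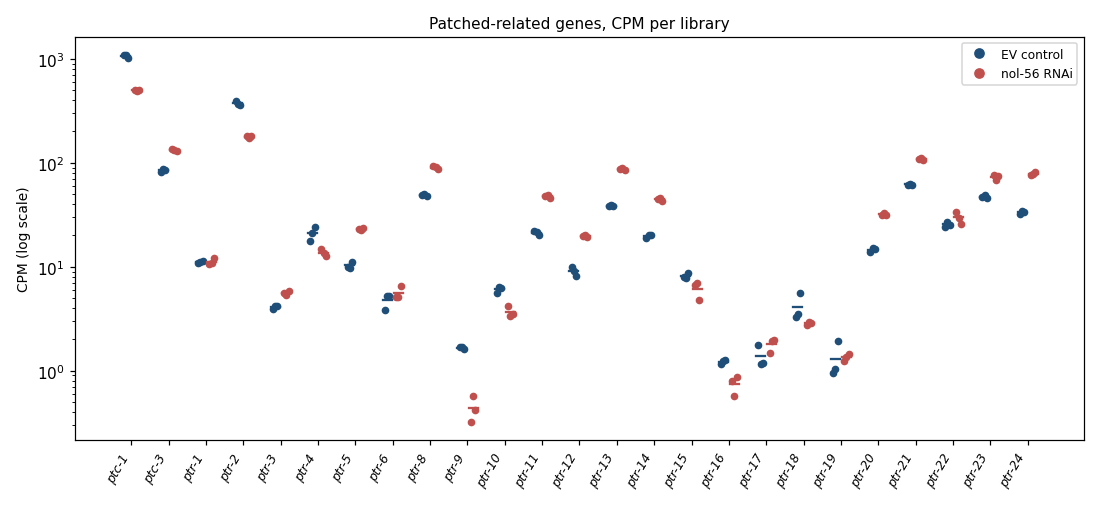
CPM per library (log scale, y axis) of patched-related genes; each point is 1 library, with 3 libraries in each group (EV control and nol-56 RNAi). ptc-1 and ptr-2 stand highest and their RNAi points lie below the control points, while those of ptc-3, ptr-13, ptr-24 and ptr-14 lie above.

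Summed over the patched-related genes, the level was 1947, 1937 and 1864 CPM in the control and 1516, 1492 and 1493 CPM under nol-56 RNAi, a ratio of 0.783. Without ptc-1 and ptr-2 the sum went the other way, from 480.4 ± 11.4 to 821 ± 13.4 CPM (SD, n = 3; ratio 1.71). Per kilobase of exon the control order was ptc-1 (209 CPM per kilobase), ptr-2 (129), ptc-3 (19.1), ptr-21 (18.3) and ptr-8 (17.5), with ptc-3 and ptr-21 within 1 SD of each other. Under nol-56 RNAi ptc-1 (98.8) and ptr-2 (61.2) still led, followed by ptr-21 (32.2), ptr-8 (32.1) and ptc-3 (29.8).

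**Figure D4:**
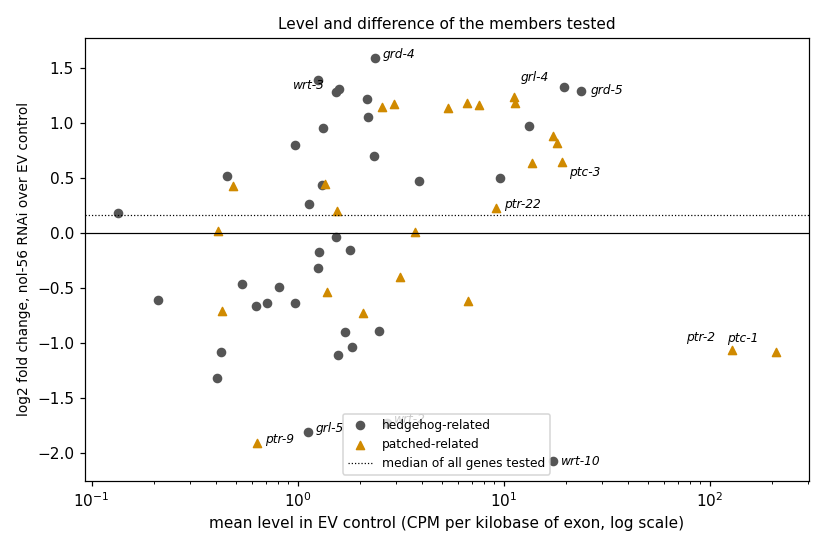
Mean level in the EV control (CPM per kilobase of exon, log scale, x axis) against log2 fold change (nol-56 RNAi over EV control, y axis); each point is 1 member tested and the dotted line is the median of all genes tested. ptc-1 and ptr-2 stand at the far right at −1.08 and −1.07, and most patched-related genes of middle level stand above 0.

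The calls of all genes also varied with level, measured as the mean CPM over all 6 libraries. Between 20 and 100 CPM, 32.9% of all genes tested were higher and 60.4% lower, and the 9 patched-related and 2 hedgehog-related genes there were all called higher. At 100 CPM or more, 22.2% of all genes were higher and 72.0% lower, and the members there were ptc-1 and ptr-2, lower, and ptc-3, higher. Below 1 CPM, 50.3% of all genes were higher and 19.2% lower, while of the 10 hedgehog-related genes there 5 were lower, none was higher and 5 were not called. Of the 5 lower, 3 met the filter's minimum in all control libraries but not in all RNAi libraries. In the bands of 1 to 2, 2 to 5 and 5 to 20 CPM, 62.3%, 70% and 64.5% of all genes were higher. In the same order 18.2%, 17.8% and 26.7% were lower. The hedgehog-related genes there were 4, 6 and 4 higher, 1, 4 and 1 lower, and 3, 2 and 0 not called. The patched-related genes were 0, 1 and 2 higher, 1, 2 and 2 lower, and 2, 0 and 2 not called. Bands share the counts that made the calls, so these shares are a description.

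There were 6 runs with neighbours within 10 kilobases of each other, holding 16 members. wrt-1 and wrt-10 end 15 bases apart on opposite strands of chromosome II (from 7530996 to 7534563) and both fell. grd-13, grd-3 and grd-10 lie on the same strand of chromosome IV (from 3438312 to 3441841) and all rose, as did grl-9 and grl-8 on chromosome V (from 6730216 to 6733095) and grd-14 and grd-4 on chromosome X (from 8500021 to 8502288). The run from grl-28 to grl-32 and the pair wrt-7 and wrt-8, both on chromosome V, were under the filter. The runs tested give 5 pairs of neighbours, each called in 1 direction, beside 53% of all 13474 pairs of neighbouring genes tested within that distance, and 5 pairs are too few to set the members apart. Chromosome V holds 34 of the 87 members (39.1%), beside 26.5% of all genes with counts. Exon bases are shared with another counted gene for 26 members, and whether the counting used strand is not stated in the sources, so reads of members with an antisense partner may include those of the partner.

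The other genes of the pathway and its sterol-sensing relatives, a list of 16, gave 8 higher, 5 lower and 3 not called. The share called was 81.25%, beside 88% of all genes tested, 47.2% as higher and 40.8% as lower. The median log2 fold change of the list was 0.28, beside 0.16 over all genes. tra-1, the worm homolog of the Gli transcription factors and best known for sex determination, fell from 121 ± 14.3 to 89.4 ± 4.36 CPM (SD, n = 3; −0.43, edgeR adjusted p = 8.54e-07). The acyltransferase-like genes hhat-1 and hhat-2, relatives of the enzyme that adds palmitate to Hedgehog, both fell: hhat-1 stood at 1.77, 2.03 and 2.94 CPM against 0.965, 0.772 and 0.739 CPM (−1.45, SE 0.23, edgeR adjusted p = 5.9e-06), and hhat-2 fell by 0.96 on the log2 scale. The Dispatched-like genes ptd-2 (0.42, adjusted p = 0.145) and che-14 (−0.20, adjusted p = 0.151), relatives of the protein that releases the ligand, and daf-6, a patched-related gene of glial channels (−0.13, adjusted p = 0.226), were not called. With RLE factors che-14 and daf-6 were called lower, and with upper-quartile factors ptd-2 higher.

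Sterol handling genes moved both ways. ncr-1, a homolog of the NPC1 cholesterol transporter and a sterol-sensing relative of Patched, stood at 37.5, 38.3 and 36.2 CPM in the control and 80.0, 79.8 and 82.2 CPM under nol-56 RNAi (2.16-fold higher, 1.11, SE 0.05, edgeR adjusted p = 9.05e-16). Its paralog ncr-2 rose (0.48), a call lost in DESeq2 (0.32, adjusted p = 0.124). scp-1, the homolog of the sterol sensor SCAP, fell from 102 ± 5.94 to 51.3 ± 2.79 CPM (SD, n = 3; −0.99), while sbp-1, the homolog of its partner SREBP, rose from 52.0 ± 1.97 to 83.9 ± 2.07 CPM (0.69). hmgr-1, named for HMG-CoA reductase, fell by 0.30, a call lost with upper-quartile factors (−0.05, adjusted p = 0.199).

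The ligand-binding relatives and the kinase of the pathway were higher. The glypican genes gpn-1 (0.82) and lon-2 (0.15, edgeR adjusted p = 0.0362, groups overlapping) rose, the latter with no call under RLE factors (0.01) and a value of −0.01 in DESeq2. lrp-1, the homolog of megalin, rose by 1.59 times, and the protein kinase A genes kin-1 (catalytic) and kin-2 (regulatory) rose by 2.06 and 1.75 times.

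The moulting and apical matrix list stood beside the members at 17 higher, 20 lower and 4 not called of 41 tested. Its median was −0.19 and its summed level was 2189 ± 44.7 against 1789 ± 16.1 CPM (SD, n = 3). Most of the difference in that sum lay in egg-6, which went from 643 ± 36.5 to 303 ± 13.1 CPM. fbn-1, a fibrillin-like matrix gene, fell from 88.8 ± 4.68 to 29.2 ± 1.33 CPM (−1.61, edgeR adjusted p = 2.51e-17). sym-1 (−1.68) and noah-2 (−1.66), both of the apical matrix, fell too, while rol-6, a gene for a collagen of the cuticle, rose (1.11). The epidermis and seam list had 8 higher and 13 lower of 23 tested, the glia list 5 and 3 of 11 and the vulva list 6 and 3 of 11, with summed levels 1.21, 1.02 and 0.717 times those of the control. The embryo list had 2 higher and 11 lower of 13 tested, with a summed level of 142, 151 and 159.9 CPM in the control and 40.1, 42.0 and 43.2 CPM under nol-56 RNAi. The parts of these cell types in the results for the members were not tested.

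**Figure D5:**
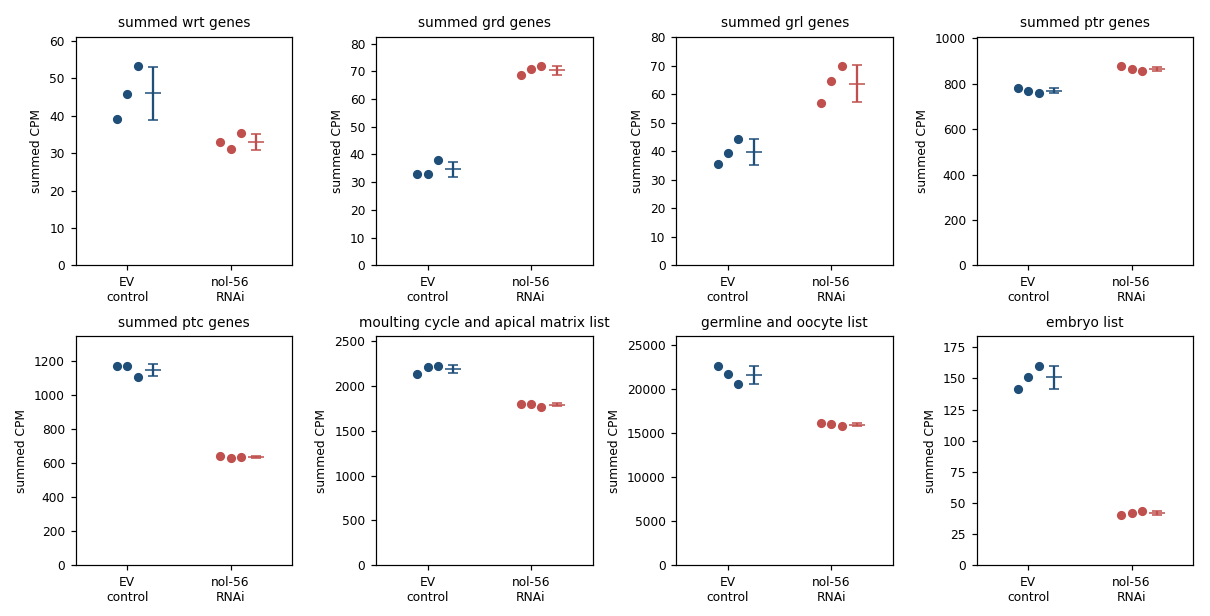
Summed CPM per library (y axes start at 0) of 5 subfamilies and of the moulting, germline and embryo lists; each point is 1 library, with 3 libraries in each group (EV control and nol-56 RNAi). The groundhog, ground-like and ptr sums are higher under nol-56 RNAi, with no overlap between groups. The warthog, ptc, moulting, germline and embryo sums are lower, also with no overlap. Without grl-4 and without wrt-10 the ground-like and warthog groups overlap. In the moulting sum egg-6 carries most of the difference.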

How the data were processed

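The authors deposited a table with a whole-number count per gene and library, not normalized, and a normalized signal, which is that count over a library's size factor, and which was used only to check those factors. The submitters' processing notes list, with no role or order, the genome build WBcel235 and the tools HTSeq 2.01, TopHat2 2.1.1, cutadapt 2.10 and DESeq2 1.36.0. Per the labels' protocols, the libraries were polyA-selected and made with a kit that marks strand, but whether the counting used strand is not stated in the sources used here.

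All 22416 genes with counts were filtered with filterByExpr at its defaults (minimum count 10), which kept 14677 genes and at least 99.9% of each library's counts, scaled by TMM and fitted in edgeR 4.0.16 (R 4.3.3, limma 3.58.1) on the group alone. The quasi-likelihood test was two-sided, with Benjamini-Hochberg adjustment over all genes tested and a threshold of 0.05. The fit was tested on simulated data. Fold changes set nol-56 RNAi over the EV control, CPM uses TMM-scaled library sizes, and levels per kilobase use the union of annotated exons in Ensembl 115 (WBcel235), in which all 87 members were found. Depth makes counting error small for genes with many counts only. The hedgehog-related genes tested had a median level of 2.08 CPM, and grd-10, for example, had 37 to 61 counts a library. Counting error is not small for such genes. Reads without molecular identifiers are not independent molecules. Within each group every pair of libraries differed beyond counting noise over genes (a chi-square of 1.99 to 5.95 for each degree of freedom), so each was kept as its own sample.

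The members and gene lists were chosen with earlier results of these data known, and the list of Hog domain genes was written after the counts were seen. Every member is accounted for. Values per library follow a rule: the 4 members of smallest p in wrt, grd, grl and ptr, all tested members of hog, qua and ptc, the highest 3 per kilobase, up to 4 members that missed the threshold, and nol-56. The rule also named the pathway list and the 4 moulting genes of smallest p. Of these only hhat-1 and ncr-1 have values per library here, and the others have means, folds or log2 fold changes. Values per library of wrt-1, wrt-4, wrt-5, grd-1, grl-7, ptr-1, ptr-4, ptr-9, ptr-22 and sqt-3 were added after they were seen. Alternatives were other scaling factors, filters, limma-voom, DESeq2 1.42.0, a test against a fold of 1.5, a replicate block and leaving out each library. Protein identity and promoter words were not analysed here.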

Additional observations from a re-analysis of the deposited data

How the results depend on the processing

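Over 16 alternatives the calls of 19 of the 29 higher and 10 of the 19 lower members were the same in each that tested them, and of 22 and 13 apart from the test against a fold of 1.5. A stricter filter, of over 5 CPM in 3 or more libraries, left fewer genes tested: 4508 genes in all were higher, 8 hedgehog-related genes were higher and 1 lower, 4 patched-related genes were lower, and the medians were −0.013 over all genes and 1.11 over the hedgehog-related genes. Against a fold of 1.5, which asks for a larger difference by construction, 3236 genes were lower, 10 hedgehog-related genes were higher and 3 patched-related genes lower, and ptc-3 missed the threshold (adjusted p = 0.0573). With upper-quartile factors 5 patched-related genes were lower and the hedgehog-related median was 0.20. That median was 0.049 with library totals, and −0.18 (without RNAi library 3) to 0.15 (without control library 3) with a library left out. The 5 genes that met the filter's minimum in all control libraries but not in all RNAi libraries all lie below the hedgehog-related median. Leaving them out, an alternative added after seeing the data, could only raise it, and gave 0.35. Leaving the gene with the largest difference out of each summed level, also added then, turned the warthog ratio from 0.72 to 1.08 and the ground-like ratio from 1.6 to 0.988, and moved the ptr ratio from 1.13 to 1.74. lon-2 was at −0.0071 in DESeq2 (adjusted p = 0.947). The cause of these moves was not tested beyond the fewer genes and larger fold named. Leaving out each library in turn gave 13 to 16 hedgehog-related genes higher and 8 to 14 lower, and 13 to 14 patched-related genes higher and 7 to 8 lower.

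With a replicate block 6893 genes were higher and 5964 lower, with 16 and 11 hedgehog-related and 13 and 8 patched-related genes, and no member's call changed; in the pathway list lon-2 lost its call (adjusted p = 0.0582). Same-numbered libraries correlated at −0.04, −0.01 and 0.00 in their deviations from the group means. The labels do not say whether same-numbered libraries were prepared together, and these values cannot show it.

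Depth limits most the 25 members under the filter, with at most 72 counts each, and those under 1 CPM. It also limits tested members of a few CPM, such as grd-10 with 37 to 61 counts a library.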
